A study of Mus musculus with 21 samples.

Results

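Lymph node dendritic cells (DCs) of KI/+ mice that were positive for the AGF reporter of Aire (AGF+) were compared with DCs of the same gate that were negative for it (AGF-). The comparison takes the lymph node libraries whose titles give AGF+ or AGF- DC without AireKO, which are 6 of the 21 libraries of the series, with 3 AGF+ and 3 AGF- libraries. Both groups have the genotype AGF-KI/+, so the AGF- cells carry the reporter knock-in allele as well, and no lymph node library of mice without that allele is among the groups. The mice are labelled as male C57BL/6 mice of 6 weeks. The sorted cells were CD45+, CD11c+ and MHCII+ and were then split by the reporter, and each group holds 3 independent biological replicates. The lymph node DCs of AireKO mice (AGF-KI/-), 3 AGF+ and 3 AGF- libraries, share the fit and serve as a second setting of the same sort. The sources used here do not say which part of Aire each allele lacks, or which lymph nodes were taken.

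Aire, the autoimmune regulator, is a transcriptional regulator best known from medullary thymic epithelial cells, where it drives the expression of genes that are otherwise restricted to single tissues, so that developing T cells meet those antigens. Aire is also transcribed in rare antigen-presenting cells of lymph nodes. DCs take up antigen, mature, migrate through lymph with the receptor CCR7 and present peptides to T cells. Conventional DCs are divided into cDC1 cells, which cross-present antigen of dead cells, and cDC2 cells, which prime helper T cells, beside plasmacytoid DCs, which produce type I interferon.

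The 6 libraries held 4263663 to 6055097 counts, so that 1 CPM (counts per library scaled to a common size) rests on 4.25 to 6.21 counts. Against the label, both libraries numbered 2, 1 in each group, had 3431 to 4054 CPM of Xist, the RNA of the inactive X chromosome, and 0 to 0.644 CPM over 4 Y-linked genes, against 0.47 to 33.2 CPM of Xist and 397 to 508 CPM of the Y-linked genes in the other 4. Their sex therefore goes against the label, and counts of calls are given with and without them. The fit without them also leaves out the AireKO libraries numbered 2, so it holds 8 libraries and has less power. What part the smaller number of libraries has in calls lost there was not tested. The choice of these sex-linked genes followed a look at their values. Mitochondrially encoded genes took 0.984% to 1.31% of counts in AGF+ and 1.61% to 2.31% in AGF- libraries. Their part in the results was not tested. Per-library values are CPM over TMM effective library sizes in the order of the replicate numbers. Log2 fold changes are AGF+ over AGF-, 3 libraries against 3. Their SE uses a spread estimated over all 12 lymph node libraries of the fit, those of AireKO mice included. Adjusted p-values are from edgeR's quasi-likelihood test with Benjamini-Hochberg adjustment over all tested genes.

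Both groups carried transcripts of DCs. Itgax, which encodes the CD11c used in the gate, had 219.6, 219 and 175 CPM in AGF+ cells, against 592, 530.2 and 418 CPM in AGF- cells. H2-Ab1, the beta chain of the MHC class II molecule I-A, had 1537, 1364 and 1318 CPM in AGF+ cells, against 2033, 1846 and 1674 CPM in AGF- cells. The cytokine receptor Flt3, on which DC development depends, had 646, 512 and 575 CPM in AGF+ cells, against 505, 392 and 361 CPM in AGF- cells. Itgax was lower in every AGF+ library than in any AGF- library (log2 fold change -1.33 ± 0.21, adjusted p = 6.3e-04), H2-Ab1 fell as well (log2 fold change -0.40 ± 0.11, adjusted p = 0.021; not called without AGF+ library 3 or AGF- library 1, adjusted p = 0.084 to 0.091; adjusted p = 0.15 without both libraries numbered 2), and Flt3 did not pass the test although its groups did not overlap (log2 fold change 0.46 ± 0.16, adjusted p = 0.056; called without AGF- library 1, adjusted p = 0.025; with the replicate number as a block, adjusted p = 0.033, a call). Zbtb46, a transcription factor of conventional DCs, had 383, 301 and 364 CPM in AGF+ cells, against 274, 246 and 191 CPM in AGF- cells and likewise stood apart without passing (log2 fold change 0.56 ± 0.19, adjusted p = 0.052; called without AGF+ library 2, adjusted p = 0.049; called with the replicate block, adjusted p = 0.026). Ccr7 was present at 488, 240.4 and 349.6 CPM in AGF+ cells, against 474, 448 and 319 CPM in AGF- cells, with overlapping groups (log2 fold change -0.20 ± 0.29, adjusted p = 0.68). Flt3, Zbtb46 and Ccr7 were chosen after their values were seen.

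Promoter sequences are shown for Aire, whose reporter defined the sort, for Il9r, an abundant gene that rose, and for Sirpb1a, which had one of the lowest adjusted p-values among the genes that fell. The 300 bases run from 250 before to 50 after the gene start in RefSeq (GRCm38.p6) and are written 5′ to 3′ on the strand of the gene. Capitals mark matches on either strand to 3 motifs, which are GAGGAAGT (PU.1), AANNGAAA (IRF) and TGTGGT (RUNX). The first and the second can overlap each other by a few bases.
Aire, chr10:78043561-78043860, minus strand: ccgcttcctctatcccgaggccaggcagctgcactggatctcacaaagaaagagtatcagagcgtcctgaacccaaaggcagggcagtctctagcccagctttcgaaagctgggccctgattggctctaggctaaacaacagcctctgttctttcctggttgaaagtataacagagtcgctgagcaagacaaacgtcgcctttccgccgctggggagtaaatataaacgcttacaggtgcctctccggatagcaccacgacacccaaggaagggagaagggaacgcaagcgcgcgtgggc
Il9r, chr11:32200230-32200529, minus strand: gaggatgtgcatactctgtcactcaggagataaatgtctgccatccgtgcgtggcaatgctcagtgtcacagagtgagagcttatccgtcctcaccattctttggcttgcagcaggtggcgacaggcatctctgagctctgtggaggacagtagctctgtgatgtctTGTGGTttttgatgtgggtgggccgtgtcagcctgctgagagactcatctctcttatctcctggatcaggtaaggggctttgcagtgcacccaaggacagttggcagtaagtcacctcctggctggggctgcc
Sirpb1a, chr3:15426378-15426677, minus strand: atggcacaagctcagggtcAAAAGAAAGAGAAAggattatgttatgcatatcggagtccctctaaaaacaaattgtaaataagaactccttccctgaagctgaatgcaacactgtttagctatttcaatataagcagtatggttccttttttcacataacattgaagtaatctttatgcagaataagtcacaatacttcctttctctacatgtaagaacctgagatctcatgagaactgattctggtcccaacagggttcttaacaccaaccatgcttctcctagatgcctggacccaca

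None of these letters stand in the Aire window. The Il9r window holds 1 match to the RUNX motif, which 16.9% of the 27025 promoters in the RefSeq table also hold. In the Sirpb1a window 2 overlapping matches to the IRF motif were found, and 24.2% of those promoters hold at least 1. The PU.1 motif was held by 3.28% of the promoters. A match describes the letters only. The 3 genes were chosen for display after their values were seen, and a comparison of promoter content between genes that rose or fell is void, since only 67.0% and 72.6% of them and 65.7% of all tested genes matched a promoter by symbol.

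Aire transcripts followed the reporter. Aire (chromosome 10 of GRCm38, 78030022 to 78043610, minus strand) had 139.6, 105 and 119 CPM in AGF+ cells, against 15.8, 15.1 and 14.9 CPM in AGF- cells. All 3 AGF+ libraries lay far above the AGF- libraries, which were nearly equal to one another, and the rise had a log2 fold change of 2.99 ± 0.16 (edgeR adjusted p = 9.9e-08). Scaled by exon length, this was 132 ± 16.1 TPM (length-scaled transcript share) in AGF+ and 15.2 ± 0.222 TPM in AGF- cells (SD, n = 3 each). Since the sort was made on the reporter of this gene, its rise checks the labels. Dnmt3l, a catalytically inactive cofactor of DNA methyltransferases that lies head to head with Aire on the opposite strand, had 9.71, 8.70 and 10.3 CPM in AGF+ cells, against 0.47, 0 and 0.679 CPM in AGF- cells. It was thus near the limit of detection in AGF- libraries and low in AGF+ libraries (log2 fold change 4.58 ± 0.44, adjusted p = 1.1e-05). Exons of the genes share 67 bases, which are 1.75% of those of Aire and 2.24% of those of Dnmt3l, and the sources used here do not say whether counting used strand. Icosl, on the far side of Dnmt3l, encodes the ligand of the T cell costimulator ICOS. Its level reached 1541, 978 and 1273 CPM in AGF+ cells, against 462, 474 and 344 CPM in AGF- cells, with no overlap (log2 fold change 1.57 ± 0.22, adjusted p = 2.6e-04), and it shares no exon bases with a neighbour. Of the other neighbours in the list of the Aire locus, the integrin chain gene Itgb2 fell (log2 fold change -0.60 ± 0.15, adjusted p = 0.013; not called without AGF+ library 3, adjusted p = 0.056), and altogether 3 of 17 tested members rose, Aire included, and 4 fell. Genes of the Aire locus fell in 1 without both libraries numbered 2 and in 0 to 2 without any 1 of the 6 libraries.

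Across the transcriptome, 1603 of 15884 tested genes were higher in AGF+ cells (10.1%) and 1746 were lower (11%) at an adjusted p under 0.05, together 21.1% of the tested genes. The changes were often large: 894 genes (5.63%) were called and at least 2-fold higher, and 942 (5.93%) were called and at least 2-fold lower. The median log2 fold change over all tested genes was 0.01, with quartiles at -0.30 and 0.33. Counts for the gene lists below are to be read beside the 10.1% higher and 11% lower over all tested genes. Values of the 3 AGF+ and the 3 AGF- libraries did not overlap for 38.4% of the tested genes, 19.2% in each direction. Without the libraries numbered 2, in a fit of 8 libraries, 877 genes were higher and 1065 lower, which is 12.1% of 16055. Of the 3330 calls that this smaller fit could test, 1815 were also called there in the same direction and 0 had the opposite sign. Genes that rose had a median exon length of 4452 bases and genes that fell 4151 bases, against 3781 bases over all tested genes. Protein-coding genes made up 79.6% of the genes that rose and 89.4% of those that fell, against 77.2% of all tested genes. With AGF- library 3 left out, 1044 genes were higher. With the replicate number as a block, which the main fit does not use, 2062 genes were higher and 2276 lower.

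**Figure D1:**
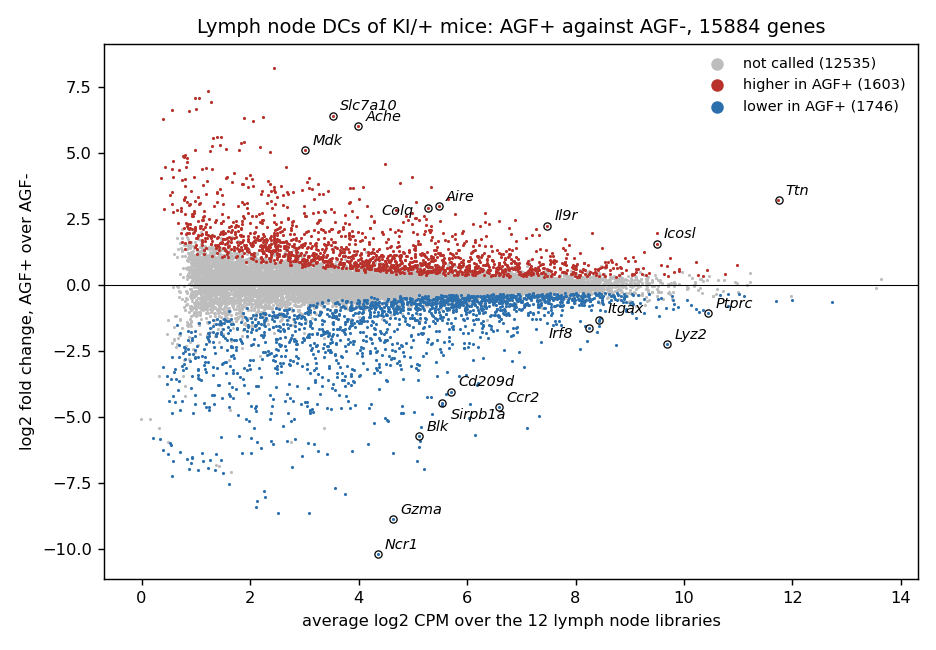
Log2 fold change of AGF+ over AGF- lymph node DCs of KI/+ mice against average log2 CPM for 15884 tested genes, with genes called at an adjusted p under 0.05 in colour and named genes labelled. The 1603 higher and 1746 lower genes spread over the whole range of levels, and Ttn is the most abundant of the labelled genes that rose.

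Changes in abundance are ranked among genes that were called, changed at least 2-fold, averaged at least 3 log2 CPM and did not overlap between the groups. The largest rise in CPM belonged to Ttn, which encodes the giant sarcomeric protein titin and has 116825 exon bases. Ttn had 4237, 6801 and 6308 CPM in AGF+ cells, against 466, 617 and 794 CPM in AGF- cells. Every AGF+ library was several times above every AGF- library (log2 fold change 3.21 ± 0.22, adjusted p = 1.1e-06). Per length this was 207 ± 52.7 TPM in AGF+ and 20.4 ± 5.58 TPM in AGF- cells (SD, n = 3 each), below Icosl in both groups, at 1136 TPM in AGF+ and 352 TPM in AGF- cells. Sspo, which encodes the large extracellular protein SCO-spondin, had 1488, 1132 and 1151 CPM in AGF+ cells, against 289, 424 and 242 CPM in AGF- cells, also without overlap (log2 fold change 1.98 ± 0.22, adjusted p = 3.5e-05). Gria3, an AMPA-type glutamate receptor subunit, had 426, 527 and 472 CPM in AGF+ cells, against nearly equal values of 121, 121 and 119.9 CPM in AGF- cells (log2 fold change 1.98 ± 0.11, adjusted p = 1.3e-07). Il9r, the receptor chain for interleukin-9, had 305, 297 and 294 CPM in AGF+ cells, against 52.4, 88.1 and 47.7 CPM in AGF- cells, with all AGF+ libraries above all AGF- libraries (log2 fold change 2.25 ± 0.20, adjusted p = 5.5e-06). Tcf7, which encodes the transcription factor TCF1 known from T cells and innate lymphoid cells, was measured at 437, 234 and 339.5 CPM in AGF+ cells, against 154, 95.2 and 156 CPM in AGF- cells. The groups stood apart (log2 fold change 1.32 ± 0.26, adjusted p = 0.0025). Others among the 15 largest gains in CPM of that ranking were Atp2b4, a plasma membrane calcium pump (1.75 ± 0.17), Chd3, a chromatin remodelling ATPase (1.02 ± 0.10), the chloride channel gene Ttyh3 (1.06 ± 0.22), the glycosyltransferase gene Extl1 (1.52 ± 0.21), the ciliary transport gene Ift140 (1.19 ± 0.13), and Tnrc18, Zc3h7b, Tmem8 and Adam11. The last, a catalytically inactive member of the ADAM family (1.26 ± 0.37), was not called without AGF+ library 1 or AGF- libraries 2 or 3, adjusted p = 0.062 to 0.11, and 0.12 without both libraries numbered 2.

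Larger in ratio were rises of genes that AGF- cells hardly transcribed. Slc7a10, a transporter of small neutral amino acids, had 21.6, 23.04 and 18.95 CPM in AGF+ and 0.235, 0.215 and 0.226 CPM in AGF- cells, which rests on so few AGF- counts that the ratio is given with its counting interval (95.2-fold, 95% counting interval 32.3 to 464). The acetylcholinesterase gene Ache had 26.6, 36.3 and 29.95 CPM in AGF+ and 0.47, 0 and 0.905 CPM in AGF- cells (log2 fold change 6.02 ± 0.50, adjusted p = 3.8e-06). Its anchor to the synaptic basal lamina, Colq, had 73.5, 62.5 and 84.2 CPM in AGF+ and 8.23, 10.3 and 10.6 CPM in AGF- cells (log2 fold change 2.91 ± 0.21, adjusted p = 1.1e-06). For all 3 genes the lowest AGF+ library was well above the highest AGF- library. Mdk, a heparin-binding growth factor, rose by 5.11 ± 0.51 on the log2 scale, Lhfpl2, a tetraspan membrane protein, by 4.04 ± 0.69, Pappa2, a protease of insulin-like growth factor binding proteins, by 3.84 ± 0.39 and the ephrin receptor gene Ephb4 by 3.83 ± 0.31. Of the exon bases of Slc7a10, 17.9% overlap Lrp3 on the opposite strand, so its reads cannot be assigned with certainty.

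Among the largest losses in abundance were genes of phagocytes and of leukocytes in general. Lyz2, the lysozyme of myeloid cells, had 250.0, 348 and 228 CPM in AGF+ cells, against 1115, 1452 and 1386 CPM in AGF- cells, with every AGF+ library below every AGF- library (log2 fold change -2.26 ± 0.23, adjusted p = 1.6e-05), although its close copy Lyz1 may share reads with it. Ptprc, which encodes the CD45 of the gate, was at 744, 999 and 778 CPM in AGF+ cells, against 1695, 1755 and 1873 CPM in AGF- cells and stood apart as well (log2 fold change -1.08 ± 0.14, adjusted p = 9.8e-05). Irf8, the transcription factor on which cDC1 cells depend, had 190.0, 122 and 147 CPM in AGF+ cells, against 667, 309.9 and 434 CPM in AGF- cells, and the groups did not overlap (log2 fold change -1.62 ± 0.32, adjusted p = 0.0027). Cst3, a cysteine protease inhibitor abundant in conventional DCs, fell by 1.37 on the log2 scale and Mpeg1, the pore-forming perforin-2 of phagocytes, had a log2 fold change of -1.56 ± 0.21. The other losses of the 15 largest among genes that fell at least 2-fold were Tmsb4x, a thymosin that binds actin monomers (-1.01 ± 0.22), Apol7c, an apolipoprotein L of cross-presenting DCs (-1.28 ± 0.32), the scaffold gene Ahnak (-1.17 ± 0.24), the mitochondrial carrier gene Ucp2 (-1.07 ± 0.12), the endocytic receptor gene Lrp1 (-2.13 ± 0.29), Csf1r, the receptor of macrophage colony-stimulating factor (-1.77 ± 0.30), Ly6e (-2.43 ± 0.17), Serinc3 (-1.07 ± 0.12), Plbd1 (-1.56 ± 0.13) and Itgax. Called genes that fell by less than 2-fold are outside the ranking, and some lost more CPM than Itgax, whose difference of means, AGF+ minus AGF-, was -309 CPM, among them Cd74 at -1446, mt-Co1 at -891 and H2-Ab1 at -445 CPM. The call of Tmsb4x did not hold without the libraries numbered 2 (adjusted p = 0.059).

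**Figure D2:**
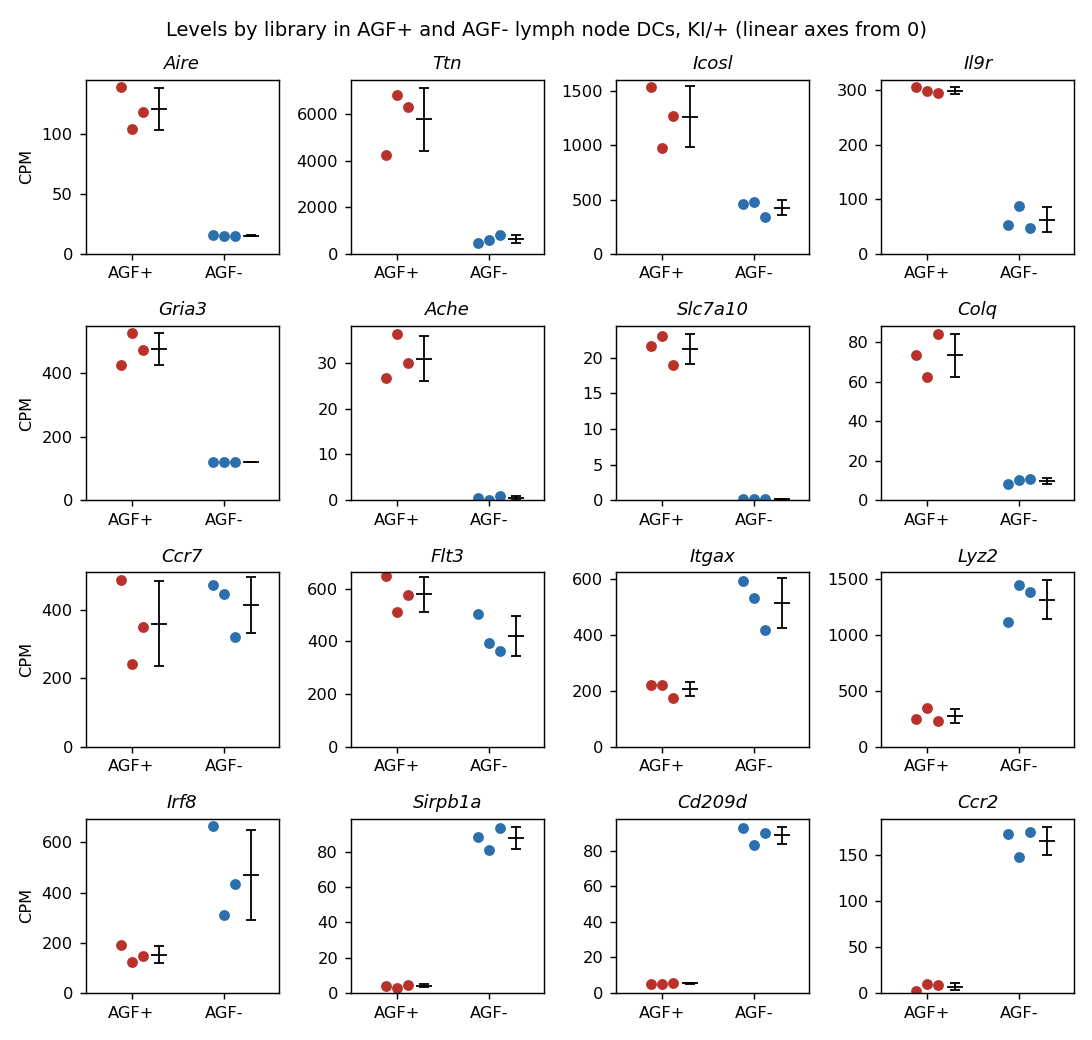
CPM (linear axes from 0) in each of the 3 AGF+ and 3 AGF- libraries of KI/+ mice for Aire and 15 further genes, 1 point per library, with the mean and SD of each group beside the points. The AGF+ points of Ttn at 4237 to 6801 CPM and of Aire at 105 to 139.6 CPM lie above all of their AGF- points, and those of Lyz2 at 228 to 348 CPM lie below theirs.

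Genes of the DC subsets were lower in AGF+ cells. Of the cDC1 list, 14 of 22 tested members fell and 0 rose, with a median log2 fold change of -1.09. cDC1 genes rose in 2 with the replicate block. Clec9a, the receptor for actin of dead cells, had 2.68, 3.06 and 2.57 CPM in AGF+ and 50.3, 22.8 and 57.7 CPM in AGF- cells (log2 fold change -3.95 ± 0.38, adjusted p = 1.2e-05). Xcr1, the receptor of the chemokine XCL1, had 5.86, 4.03 and 5.85 CPM in AGF+ and 36.9, 16.2 and 48.2 CPM in AGF- cells (log2 fold change -2.69 ± 0.34, adjusted p = 8.4e-05). Both were present in every AGF- library and lower in every AGF+ library. Naaa, a lysosomal lipid amidase (-2.41 ± 0.21), and Sept3, a septin (-3.35 ± 0.36), completed the 4 strongest calls of the list. Of the cDC2 list, 11 of 22 fell and 2 rose (median -0.69). The lectin genes Cd209a (-4.89 ± 0.36), Clec4a2 (-3.06 ± 0.29) and Clec10a (-2.71 ± 0.28) fell, while Ltb, the lymphotoxin beta subunit, had 188, 146 and 196 CPM in AGF+ and 62.3, 76.7 and 63.6 CPM in AGF- cells (log2 fold change 1.39 ± 0.13, adjusted p = 9.8e-06) and the junctional adhesion gene Esam had 103, 82.7 and 74.2 CPM in AGF+ and 28.5, 23.5 and 16.3 CPM in AGF- cells (log2 fold change 1.93 ± 0.20, adjusted p = 1.9e-05). For Ltb and Esam the AGF+ values were all above the AGF- values. In bulk RNA, fewer cells of a type and less RNA per cell cannot be told apart, here and for all marker lists below.

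Plasmacytoid DC genes were lower in 14 of 20 and higher in 1 (median -1.62), led by Ly6d (-4.85 ± 0.42) and Plac8 (-2.89 ± 0.26). Klk1, a kallikrein, was lower by 88.1-fold, 95% counting interval 29.8 to 431. The single riser, Spib, an Ets factor of plasmacytoid DCs and B cells, had 333, 241 and 249.9 CPM in AGF+ and 162, 137 and 87.99 CPM in AGF- cells (log2 fold change 1.09 ± 0.22, adjusted p = 0.0031), while Siglech, a sialic acid receptor used as a plasmacytoid DC marker, had 7.70, 11.8 and 8.42 CPM in AGF+ and 178, 38.98 and 157 CPM in AGF- cells (log2 fold change -3.73 ± 0.68, adjusted p = 0.0015). Members of this one list thus moved in opposite directions without overlap between the groups. Spib and Siglech were chosen after their values were seen. Langerhans cell genes fell in 5 of 10 and rose in 1 (median -0.72). Cd207, the Birbeck granule lectin langerin (-3.22 ± 0.88), and Cdh1, E-cadherin (-2.61 ± 0.46), were among those that fell, and Prnp, the prion protein gene, rose (1.92 ± 0.28). The call of Cd207 did not hold in each setting (not called without AGF+ libraries 1 or 2 or AGF- library 2, adjusted p = 0.056 to 0.074). Langerhans cell genes fell in 3 without both libraries numbered 2 and in 3 without AGF+ library 2 or AGF- library 2.

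Of the list of mature, migratory DCs, 7 of 40 tested members rose, 2 fell and the median was 0.06. Its summed level was 11466 to 17504 CPM in AGF+ and 13228 to 15976 CPM in AGF- libraries, which overlap. Stat5a, a transcription factor downstream of GM-CSF and TSLP, had 379, 339 and 406 CPM in AGF+ and 215, 226 and 184 CPM in AGF- cells (log2 fold change 0.84 ± 0.12, adjusted p = 2.4e-04). Ebi3, a subunit of interleukin-27 and interleukin-35, had 52.4, 44.6 and 52.9 CPM in AGF+ and 20.7, 21.1 and 23.98 CPM in AGF- cells (log2 fold change 1.19 ± 0.22, adjusted p = 0.0015), and 23.4% of its exon bases overlap an antisense gene. Cd80, a ligand of CD28 and CTLA-4, had 102, 108 and 106 CPM in AGF+ and 42.8, 65.5 and 50.2 CPM in AGF- cells (log2 fold change 1.00 ± 0.19, adjusted p = 0.0025). Each of these 3 was higher in all AGF+ libraries. Mature migratory DC genes rose in 4 without AGF+ libraries 1 or 3 or AGF- library 3, and fell in 4 with the replicate block. The actin bundling gene Fscn1 (log2 fold change 0.35 ± 0.26, adjusted p = 0.37), Cd86 (log2 fold change 0.73 ± 0.26, adjusted p = 0.059; called with the replicate block, adjusted p = 0.017), Cd40 (log2 fold change 0.27 ± 0.18, adjusted p = 0.33) and Cd83 (log2 fold change -0.25 ± 0.26, adjusted p = 0.55), further markers of DC maturation chosen after their values were seen, did not pass.

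Of the general list of DC and haematopoietic genes, 6 of 16 fell and 0 rose (median -0.23). Pan-DC and haematopoietic genes rose in 2 with the replicate block. Besides Ptprc and Itgax the fallers included Kmo, an enzyme of tryptophan breakdown (-1.64 ± 0.16). Transcription factors of DCs and other blood cells were lower in 33 of 80 and higher in 8 (median -0.56). This is 10% higher, against 10.1% over all tested genes. Ikzf3, the lymphoid factor Aiolos (-3.80 ± 0.28), Klf2, a regulator of lymphocyte egress (-2.08 ± 0.19), and Runx1 (-1.08 ± 0.12) had the lowest adjusted p-values beside Aire. Among the risers, Prdm16, known from haematopoietic stem cells and brown fat, had 13.4, 9.02 and 4.21 CPM in AGF+ and 2.12, 2.37 and 3.17 CPM in AGF- cells (log2 fold change 1.81 ± 0.45, adjusted p = 0.011), and Ikzf4, the factor Eos, had 53.6, 26.3 and 50.8 CPM in AGF+ and 22.6, 15.7 and 16.1 CPM in AGF- cells (log2 fold change 1.26 ± 0.33, adjusted p = 0.014; not called without AGF+ libraries 1 or 3 or AGF- libraries 2 or 3, adjusted p = 0.053 to 0.062). Myc (-2.47 ± 0.34) and Maf (-2.88 ± 0.60) fell. Irf4 of cDC2 cells (log2 fold change -0.05 ± 0.19, adjusted p = 0.89), Batf3 of cDC1 cells (log2 fold change 0.40 ± 0.18, adjusted p = 0.14) and Relb (log2 fold change 0.33 ± 0.23, adjusted p = 0.35) did not pass. The factors from Prdm16 onward were chosen after their values were seen. Prdm16 was not called without AGF+ library 1, adjusted p = 0.061, and 0.077 without both libraries numbered 2. Transcription factor genes rose in 4 to 5 without AGF+ library 1 or AGF- library 3.

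**Figure D3:**
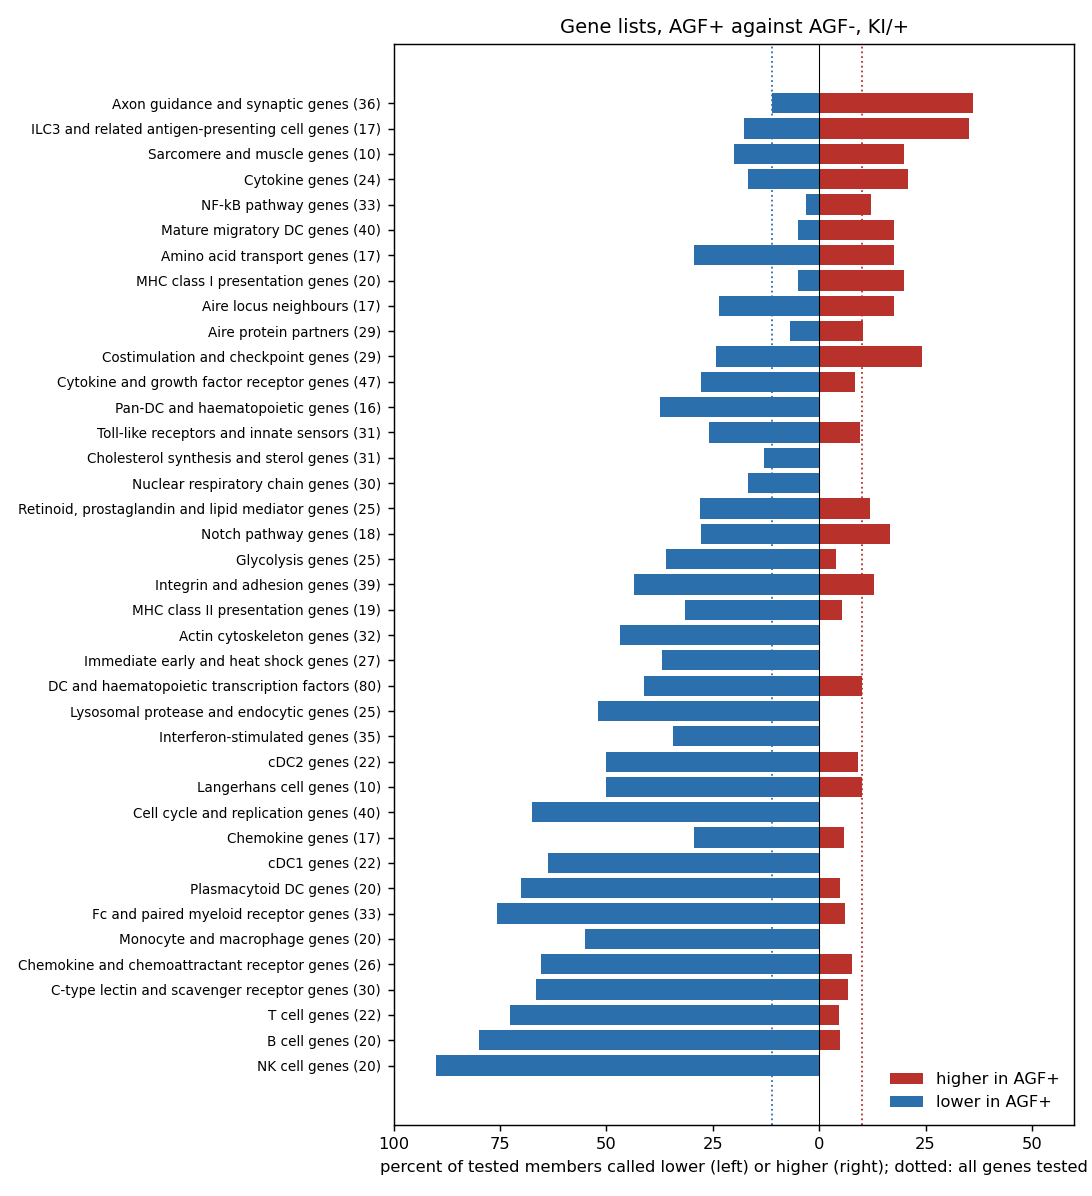
Percent of tested members that were higher (right) and lower (left) in AGF+ than in AGF- DCs at an adjusted p under 0.05, for 39 gene lists with at least 10 tested members (number in brackets), with dotted lines at the share over all tested genes. NK cell genes were lower in 18 of 20 and axon guidance and synaptic genes higher in 13 of 36, against 11% lower and 10.1% higher over all tested genes. The lists were chosen with earlier results of these data known, so the shares are descriptions only.

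Markers of lymphocytes and monocytes, which the gate could also hold, were much lower in AGF+ cells. NK cell genes were lower in 18 of 20 and higher in 0 (median -5.91). Ncr1, the activating receptor NKp46, had 0, 0 and 0 CPM in AGF+ and 49.4, 5.81 and 33.9 CPM in AGF- cells, and was at least 159-fold lower. Gzmb, granzyme B, was at least 53.5-fold lower, and Xcl1, a chemokine of NK and T cells, at least 35.01-fold lower, both at 0 counts in all AGF+ libraries. Gzma was lower by 652-fold, 95% counting interval 117 to 25816, Klrb1c by 334-fold, 95% counting interval 59.4 to 13225 and Klrc1, whose reads can be shared with its paralog Klrc2, by 287-fold, 95% counting interval 50.9 to 11371. These "at least" folds use a floor of 3 counts over the group, and counting intervals cover counting error only. The summed NK cell level was 202 to 465 CPM in AGF+ and 617 to 1328 CPM in AGF- libraries, and the library numbered 2 was the lowest of both groups. Of the AGF+ sum, 329 CPM on average came from the chemokine gene Ccl5, which DCs can express as well and which was not called (adjusted p = 0.083). Gzmb, Xcl1, Ncr1 and the receptor gene Klra8 were at 0 in AGF+ libraries. Ccl5 and Klra8 were chosen after their values were seen. T cell genes were lower in 16 of 22 (median -3.00) and higher in 1, which is Tcf7. Cd3e, a chain of the T cell receptor complex, had 2.01, 4.19 and 2.81 CPM in AGF+ and 14.8, 7.32 and 69.7 CPM in AGF- cells (log2 fold change -3.33 ± 0.84, adjusted p = 0.012; not called without AGF+ library 1 or AGF- library 3, adjusted p = 0.055 to 0.1), and was chosen after its values were seen. T cell genes fell in 6 to 9 without AGF+ libraries 1 or 2 or AGF- library 3. Summed T cell levels overlapped, at 392 to 675 CPM in AGF+ and 331 to 879.9 CPM in AGF- libraries, with 337 CPM of the AGF+ sum from Tcf7 on average.

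B cell genes were lower in 16 of 20 and higher in 1, again Spib (median -3.18). Cd22, an inhibitory receptor of B cells, had 19.7, 17.7 and 14.98 CPM in AGF+ and 80.9, 169 and 112 CPM in AGF- cells (log2 fold change -2.78 ± 0.29, adjusted p = 2.2e-05) and Ms4a1, which encodes CD20, had 2.85, 4.03 and 2.34 CPM in AGF+ and 39.5, 104 and 78.03 CPM in AGF- cells (log2 fold change -4.55 ± 0.52, adjusted p = 4.2e-05). Both were low but not absent in AGF+ libraries, and Ms4a1 was chosen after its values were seen. The summed B cell level was 599 to 617 CPM in AGF+ and 1442 to 2751 CPM in AGF- libraries. Plasma cell genes fell in 5 of 7 (median -1.24), and Mzb1, a chaperone of immunoglobulin assembly, was at least 13.2-fold lower, with 57.2% of its exon bases shared with another gene on the same strand. Plasma cell genes fell in 1 without both libraries numbered 2 and in 3 without AGF+ library 1 or AGF- library 2. Monocyte and macrophage genes were lower in 11 of 20 (median -1.78), with sums of 605 to 763 CPM in AGF+ and 2464 to 2719 CPM in AGF- libraries. Ccr2, the receptor with which monocytes leave the bone marrow, had 2.51, 9.18 and 8.19 CPM in AGF+ and 173, 147 and 175 CPM in AGF- cells (log2 fold change -4.65 ± 0.43, adjusted p = 8.7e-06). Every AGF+ library was many times below the AGF- libraries. Ly6c2 (-5.90 ± 0.71) and Adgre1, which encodes F4/80 (-2.02 ± 0.29), fell too. What part a different share of these cells in the AGF- gate has in the other differences was not tested.

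**Figure D4:**
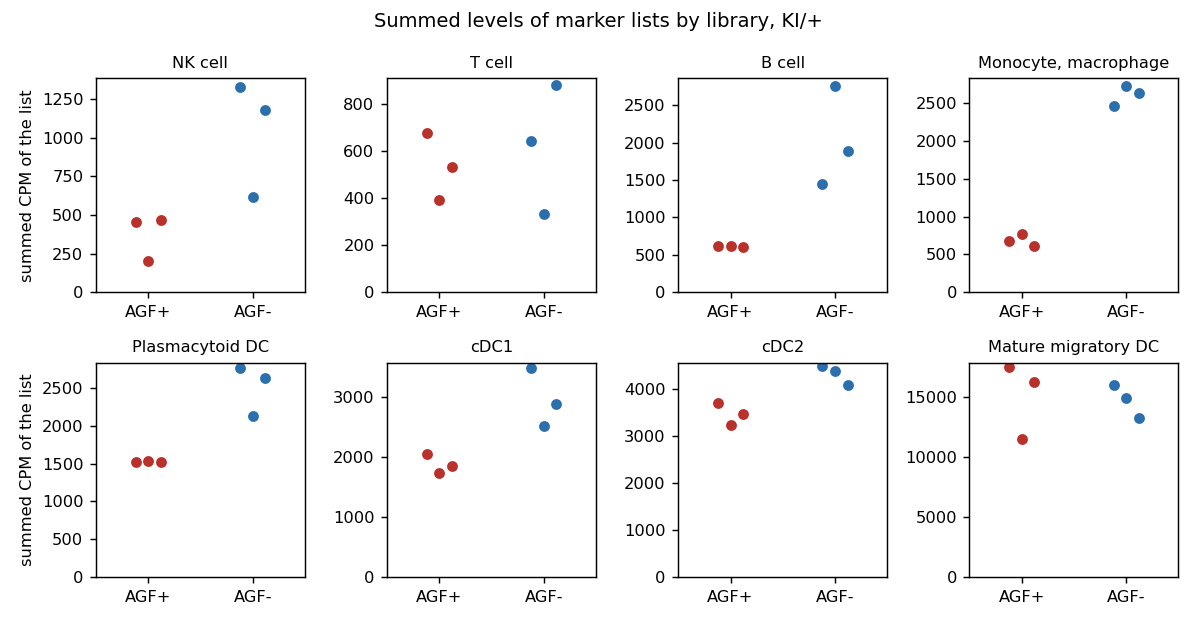
Summed CPM of the marker lists of other cell types and of DC subsets in each of the 3 AGF+ and 3 AGF- libraries of KI/+ mice (linear axes from 0). Sums of monocyte and macrophage genes were 605 to 763 CPM in AGF+ and 2464 to 2719 CPM in AGF- libraries, whereas those of mature DC and T cell genes overlapped.

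Of eosinophil, basophil and mast cell genes, 4 were tested. Siglecf, a sialic acid receptor of eosinophils and alveolar macrophages, had 8.70, 8.22 and 10.5 CPM in AGF+ and 2.12, 2.58 and 1.36 CPM in AGF- cells (log2 fold change 2.16 ± 0.28, adjusted p = 1.3e-04) and Prg2, eosinophil major basic protein, had 11.2, 8.38 and 5.62 CPM in AGF+ and 1.18, 0.646 and 0.226 CPM in AGF- cells (log2 fold change 3.60 ± 0.52, adjusted p = 2.8e-04). Ear2, an eosinophil ribonuclease (-2.97 ± 0.52), and Il5ra, the interleukin-5 receptor (-3.60 ± 0.77), fell, so genes of this lineage did not move together. Il5ra was not called without both libraries numbered 2 (adjusted p = 0.055). Genes of group 3 innate lymphoid cells (ILC3) and of antigen-presenting cells that resemble them rose in 6 of 17 and fell in 3 (median 0.26). The risers included Slc7a10, Ltb, Prdm16, Il1r1, the interleukin-1 receptor (1.70 ± 0.24), and Ncam1, a neural adhesion molecule (higher by 48.2-fold, 95% counting interval 13.04 to 402). Il7r, the interleukin-7 receptor of lymphoid cells, chosen after its values were seen, had 198, 169 and 231 CPM in AGF+ and 264, 217 and 358 CPM in AGF- cells (log2 fold change -0.49 ± 0.19, adjusted p = 0.078; called without AGF- library 2, adjusted p = 0.031; called with the replicate block, adjusted p = 0.034). Genes of the ILC3 list fell in 5 without AGF- library 2. Stromal and endothelial genes fell in 2 of 6, which were Pecam1 (-1.81 ± 0.13) and Cdh5 (-4.15 ± 0.81). The neutrophil list had 1 tested member, Csf3r, the receptor of granulocyte colony-stimulating factor, which fell (-2.24 ± 0.22). Of the 3 tested erythroid and platelet genes (Itga2b, Alas2 and Gp1ba), edgeR, DESeq2 and limma voom each called 0, and 1 had an unadjusted p under 0.05 in edgeR's test.

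Few of the genes listed here for Aire in the thymus were measurable. The list is a choice of tissue-restricted genes linked to Aire in thymic epithelium, and the link was not checked for each member. Of its 23 genes in the count table, 11 had no counts in these libraries and only 4 passed the expression filter. Of these 4, edgeR, DESeq2 and limma voom each called 0, with 0 at an unadjusted p under 0.05 in edgeR's test. They included Tnnt2, a cardiac troponin (0.50 ± 0.43, adjusted p = 0.46), Mbp, a myelin protein (0.11 ± 0.12, adjusted p = 0.57), and Muc6, a gastric mucin (-0.05 ± 0.26, adjusted p = 0.91). At this depth a gene without counts in AGF+ cells is below 0.182 CPM over the group. Of 3 tested genes of medullary thymic epithelium, Cd80 rose, while Tnfrsf11a, the receptor RANK (0.45 ± 0.19, adjusted p = 0.12), and Epcam (-0.58 ± 0.31, adjusted p = 0.21) did not pass. Genes of proteins that bind Aire rose in 3 of 29 and fell in 2 (median 0.00), near or below the 10.1% higher and 11% lower over all tested genes. They were the methyltransferase gene Kmt2a (0.50 ± 0.11), the kinase gene Hipk2 (0.46 ± 0.11) and the chromatin remodelling gene Arid1a (0.35 ± 0.12), and, in the other direction, the topoisomerases Top2a (-1.58 ± 0.19) and Top2b (-0.45 ± 0.14). Hipk2 was not called without AGF+ library 3, adjusted p = 0.058, Arid1a was not called without AGF+ libraries 2 or 3 or AGF- libraries 1, 2 or 3, adjusted p = 0.062 to 0.18, and Top2b was not called without AGF+ libraries 1 or 3 or AGF- libraries 2 or 3, adjusted p = 0.059 to 0.14. Aire partner genes rose in 5 with the replicate block and in 1 without both libraries numbered 2 and in 1 without AGF+ library 3.

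Ligands for T cells were divided. Of costimulation and checkpoint genes, 7 of 29 rose and 7 fell (median -0.02). Costimulation and checkpoint genes rose in 4 without both libraries numbered 2 and in 4 without AGF+ libraries 1 or 3 or AGF- library 3, and fell in 4 without both libraries numbered 2. Besides Icosl and Cd80, the risers included Cd70, the ligand of CD27, with 4.85, 4.99 and 4.45 CPM in AGF+ and 1.18, 1.08 and 1.58 CPM in AGF- cells (log2 fold change 1.88 ± 0.39, adjusted p = 0.0037), and Cd200, the ligand of the inhibitory receptor CD200R, with 113, 63 and 80.03 CPM in AGF+ and 38.1, 31.01 and 34.8 CPM in AGF- cells (log2 fold change 1.30 ± 0.31, adjusted p = 0.009). Neither gene, both chosen after their values were seen, had overlapping groups. Lgals9, galectin-9 (-1.07 ± 0.18), and Tnfsf14, the cytokine LIGHT (-4.33 ± 0.75), fell. Pdcd1lg2, which encodes the PD-1 ligand PD-L2, had 12.2, 9.02 and 7.72 CPM in AGF+ and 21.2, 17.9 and 17.4 CPM in AGF- cells (log2 fold change -0.95 ± 0.22, adjusted p = 0.0077) and was not called without the libraries numbered 2 (adjusted p = 0.073).

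MHC class II presentation genes fell in 6 of 19 and rose in 1 (median -0.36). March1, a ubiquitin ligase that drives turnover of MHC class II in immature DCs, had 34.5, 40.1 and 38.4 CPM in AGF+ and 121, 120.0 and 139 CPM in AGF- cells (log2 fold change -1.75 ± 0.17, adjusted p = 1.3e-05). Every AGF+ library was below the AGF- libraries. Cd74, the invariant chain, fell (log2 fold change -0.63 ± 0.12) and H2-Ob, an inhibitor of peptide loading, had a log2 fold change of -0.78 ± 0.18, while H2-DMb2, a beta chain of the peptide-loading factor H2-M, rose (0.88 ± 0.15). H2-Aa, chosen after its values were seen, did not pass (log2 fold change -0.29 ± 0.11, adjusted p = 0.068), but was called with the replicate block (adjusted p = 0.034). MHC class II presentation genes fell in 10 with the replicate block and in 3 without both libraries numbered 2 and in 3 without AGF+ library 3. H2-Ob was not called without both libraries numbered 2 (adjusted p = 0.066). MHC class I presentation genes rose in 4 of 20 and fell in 1 (median 0.02). Both peptide transporter genes were among the risers, Tap1 (0.60 ± 0.15) and Tap2 (0.65 ± 0.14), with the immunoproteasome gene Psmb9 (0.58 ± 0.15) and the non-classical H2-Q7 (0.70 ± 0.16), whose reads can be shared with paralogs. The chaperone gene Pdia3 fell (-0.49 ± 0.13; not called without AGF+ libraries 1 or 3 or AGF- library 3, adjusted p = 0.054 to 0.07). Psmb9 was not called without AGF+ library 1 or AGF- libraries 1 or 3, adjusted p = 0.051 to 0.062. H2-K1, H2-D1 and B2m, which make the classical class I molecules and were chosen after their values were seen, had log2 fold changes of 0.11, 0.18 and -0.34 and did not pass.

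Cytokine genes rose in 5 of 24 and fell in 4 (median 0.12). Il7, the growth factor of lymphoid cells, had 71.6, 56.1 and 59.7 CPM in AGF+ and 30.3, 28.2 and 17.4 CPM in AGF- cells (log2 fold change 1.30 ± 0.26, adjusted p = 0.0031). It was chosen after its values were seen, as was Ifng, interferon gamma, which had 0 counts in AGF+ libraries and was at least 12.8-fold lower (not called without AGF+ libraries 1, 2 or 3 or AGF- libraries 1 or 3, adjusted p = 0.063 to 0.14). Il1b, interleukin-1 beta, had 6.53, 9.83 and 7.02 CPM in AGF+ and 19.5, 52.1 and 28.5 CPM in AGF- cells (log2 fold change -2.09 ± 0.33, adjusted p = 4.9e-04), and Tgfb1 fell (-0.94 ± 0.15). All 3 AGF+ libraries were higher for Il7 and lower for Il1b and Tgfb1. Among cytokine and growth factor receptors, 4 of 47 rose and 13 fell (median -0.22). The share that rose, 8.51%, is near the 10.1% over all tested genes. Il1rl2, the receptor of interleukin-36, had 67.6, 72.02 and 57.8 CPM in AGF+ and 11.5, 17.7 and 13.1 CPM in AGF- cells (log2 fold change 2.22 ± 0.24, adjusted p = 3.2e-05), and Il1r1 had 70.6, 63.5 and 51.2 CPM in AGF+ and 18.6, 12.7 and 26.01 CPM in AGF- cells (log2 fold change 1.70 ± 0.24, adjusted p = 2.4e-04). With Il9r, these were higher in all AGF+ libraries. Il2rb, a chain shared by the receptors of interleukins 2 and 15, fell (-5.68 ± 0.82).

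Trafficking receptors were mostly lower. Chemokine and chemoattractant receptor genes fell in 17 of 26 and rose in 2 (median -1.85). S1pr1, the sphingosine 1-phosphate receptor for exit from lymphoid tissue, had 1.84, 1.45 and 1.17 CPM in AGF+ and 18.1, 22.2 and 26.01 CPM in AGF- cells (log2 fold change -3.85 ± 0.30, adjusted p = 2.6e-06). Cxcr3, a receptor of interferon-induced chemokines, had 1.34, 0.161 and 0.468 CPM in AGF+ and 17.6, 11.8 and 17.6 CPM in AGF- cells (log2 fold change -4.51 ± 0.60, adjusted p = 1.3e-04). Neither overlapped between the groups. The fractalkine receptor gene Cx3cr1 fell (-2.54 ± 0.41) and Cxcr4 fell (-1.13 ± 0.16), while Ccrl2, a chemerin-binding receptor, rose (1.16 ± 0.22), as did Gpr183, the oxysterol receptor EBI2 (0.42 ± 0.13), which was not called without AGF+ libraries 1 or 3 or AGF- libraries 1 or 3, adjusted p = 0.087 to 0.17, and 0.064 without both libraries numbered 2. Cx3cr1, Cxcr4, Ccrl2 and Gpr183 were chosen after their values were seen. Among chemokine genes, 5 of 17 fell and 1 rose (median -1.04). Chemokine genes fell in 9 with the replicate block. Ccl9 (-2.55 ± 0.18), Ccl6 (-2.24 ± 0.27) and Ccl3 (-2.45 ± 0.53), attractants of myeloid cells, fell, and the fractalkine gene Cx3cl1 rose (1.08 ± 0.22). Cxcl10, a ligand of CXCR3, had 3.18, 9.35 and 7.02 CPM in AGF+ and 15.99, 22.8 and 22.8 CPM in AGF- cells (log2 fold change -1.66 ± 0.48, adjusted p = 0.024) and was not called without AGF+ libraries 1 or 3 or AGF- libraries 2 or 3, adjusted p = 0.061 to 0.097, and 0.059 without both libraries numbered 2.

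Uptake receptors and paired receptors were mostly lower. C-type lectin and scavenger receptor genes fell in 20 of 30 and rose in 2 (median -2.36). Cd209d, a relative of DC-SIGN, had 5.02, 5.16 and 5.85 CPM in AGF+ and 92.9, 83.3 and 89.8 CPM in AGF- cells (log2 fold change -4.06 ± 0.40, adjusted p = 1.4e-05). Reads of the Cd209 family can be shared among its members. Fc and paired myeloid receptor genes fell in 25 of 33 and rose in 2 (median -1.72). Sirpb1a, a signal regulatory protein that couples to the adaptor DAP12 and whose promoter is shown above, had 4.18, 3.06 and 4.68 CPM in AGF+ and 88.4, 80.98 and 93.6 CPM in AGF- cells (log2 fold change -4.47 ± 0.25, adjusted p = 1.3e-07). Its close paralogs Sirpb1b (-4.53 ± 0.36) and Sirpb1c (-5.13 ± 0.42) fell too, but reads can be shared among them. Cd300c2 fell (-2.97 ± 0.23), and Fcgr3, a low-affinity receptor for immunoglobulin G chosen after its values were seen, had 3.18, 2.42 and 0.702 CPM in AGF+ and 17.2, 20.5 and 25.6 CPM in AGF- cells (log2 fold change -3.24 ± 0.55, adjusted p = 8.6e-04). In each of these genes the highest AGF+ library was below the lowest AGF- library.

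Innate sensors fell in 8 of 31 and rose in 3 (median -0.25). The 9.68% that rose is near the 10.1% over all tested genes. The fallers with the lowest adjusted p-values were Tlr8 (-3.60 ± 0.40) and Tlr7 (-2.79 ± 0.32), endosomal sensors of single-stranded RNA, Myd88, the adaptor of most Toll-like receptors (-1.19 ± 0.16), and Tlr11 (-1.14 ± 0.22). Sensor genes rose in 1 without both libraries numbered 2 and in 1 without AGF- libraries 1 or 3, and fell in 5 without both libraries numbered 2. Interferon-stimulated genes fell in 12 of 35 and rose in 0 (median -0.63). Ifi27l2a had 6.86, 5.80 and 7.02 CPM in AGF+ and 34.8, 52.8 and 28.05 CPM in AGF- cells (log2 fold change -2.56 ± 0.26, adjusted p = 1.5e-05), and Ly6a, also known as Sca-1, had 0, 3.22 and 0.702 CPM in AGF+ and 36.9, 38.6 and 45.2 CPM in AGF- cells (log2 fold change -4.84 ± 0.51, adjusted p = 2.3e-05). Irf7, the main inducer of type I interferon in plasmacytoid DCs and chosen after its values were seen, fell (-1.35 ± 0.27). Interferon-stimulated genes fell in 20 with the replicate block and in 20 without AGF+ library 3. NF-kB pathway genes rose in 4 of 33 and fell in 1 (median 0.09), which is near the share over all tested genes. The risers were the inhibitors Tnip1 (0.63 ± 0.11) and Nfkbie (0.47 ± 0.12), the kinase gene Ikbke (0.85 ± 0.19) and Nfkb2 of the non-canonical pathway (0.45 ± 0.13), and the faller was Traf5 (-0.54 ± 0.17). Of these, Nfkbie was not called without AGF+ library 1 or AGF- library 3, adjusted p = 0.052 to 0.059, Nfkb2 was not called without AGF+ libraries 1 or 3 or AGF- library 3, adjusted p = 0.079 to 0.11, and Traf5 was not called without any 1 of the 6 libraries, adjusted p = 0.057 to 0.11. NF-kB pathway genes rose in 2 without AGF+ library 1 or AGF- library 3. Without both libraries numbered 2, Nfkbie (adjusted p = 0.053) and Traf5 (adjusted p = 0.22) were not called.

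Adhesion genes fell in 17 of 39 and rose in 5 (median -0.35). With 12.8% higher, they are near the 10.1% over all tested genes in that direction. Esam and Ncam1 were among those that rose and Pecam1 among those that fell, with the values above, and Cd44, a hyaluronan receptor, fell by 0.85 on the log2 scale. Integrin and adhesion genes rose in 8 with the replicate block and in 2 without both libraries numbered 2 and in 3 without AGF+ libraries 1 or 3 or AGF- library 2. Axon guidance and synaptic genes rose in 13 of 36 tested members, of 52 in the count table, and fell in 4 (median 0.35). This list was chosen with earlier results of these data known, so its share is a description only. Ache, Colq and Ephb4 are described above. Sema3f, a secreted semaphorin, had 40.5, 16.1 and 24.3 CPM in AGF+ and 1.88, 2.80 and 1.58 CPM in AGF- cells (log2 fold change 3.67 ± 0.46, adjusted p = 8.2e-05). Unc5c, a netrin receptor, had 5.02, 7.90 and 11.7 CPM in AGF+ and 0.235, 0 and 0.452 CPM in AGF- cells, a rise of 34.8-fold, 95% counting interval 11.6 to 171. Nlgn2, a postsynaptic adhesion molecule, had 65.9, 52.04 and 64.3 CPM in AGF+ and 21.9, 19.2 and 19.7 CPM in AGF- cells (log2 fold change 1.58 ± 0.26, adjusted p = 7.6e-04). None of the 3 overlapped between the groups. Sema4c (1.67 ± 0.19), Sema6d (0.78 ± 0.25; not called without any 1 of the 6 libraries, adjusted p = 0.057 to 0.15), Rimkla, which makes a dipeptide abundant in brain (3.27 ± 0.41), and the netrin gene Ntn5 (3.64 ± 0.48) rose as well, the last with 23.4% of its exon bases under an antisense gene. The ephrin receptor gene Epha2 fell (-3.77 ± 0.83). All members from Sema3f onward were chosen after their values were seen.

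Proliferation genes were lower in AGF+ cells. Of the cell cycle and replication list, 27 of 40 fell and 0 rose (median -0.88). Mki67, the proliferation antigen Ki-67, had 38.2, 49.3 and 39.8 CPM in AGF+ and 112, 140.0 and 159 CPM in AGF- cells (log2 fold change -1.69 ± 0.21, adjusted p = 9.0e-05). Top2a had 17.1, 25.9 and 14.98 CPM in AGF+ and 51.7, 57.7 and 64.9 CPM in AGF- cells (log2 fold change -1.58 ± 0.19, adjusted p = 5.4e-05). Both were present at reduced levels in AGF+ libraries, with no overlap. Cell cycle and replication genes rose in 2 with the replicate block, and fell in 12 without both libraries numbered 2. Immediate early and heat shock genes, which cell dissociation can also induce, fell in 10 of 27 (median -0.48). Immediate early and heat shock genes rose in 1 with the replicate block, and fell in 5 without both libraries numbered 2 and in 4 to 6 without AGF+ libraries 1, 2 or 3 or AGF- libraries 1 or 3. Egr2 (-3.08 ± 0.46), Egr3 (-3.33 ± 0.56) and Nr4a1 (-2.16 ± 0.37), all induced by receptor signals, led those that fell.

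Glycolysis genes fell in 9 of 25 and rose in 1 (median -0.34). The enolase isoforms moved oppositely. Eno1, the widespread form, had 64.3, 63.2 and 60.4 CPM in AGF+ and 150.5, 129 and 138 CPM in AGF- cells (log2 fold change -1.15 ± 0.11, adjusted p = 1.5e-05), and Eno2, the form of neurons, had 305, 225 and 289 CPM in AGF+ and 113, 124 and 91.8 CPM in AGF- cells (log2 fold change 1.32 ± 0.23, adjusted p = 0.0013). Glycolysis genes rose in 2 with the replicate block, and fell in 5 without AGF+ library 3 or AGF- library 1. Nuclear genes of the respiratory chain fell in 5 of 30 (median -0.31), against 11% over all tested genes. Nuclear respiratory chain genes fell in 0 without both libraries numbered 2 and in 0 to 3 without any 1 of the 6 libraries. Of the mitochondrially encoded genes, 4 of 7 tested fell (median -0.82), with mt-Co1, a subunit of cytochrome oxidase, at -0.78 ± 0.20 (not called without AGF+ library 1 or AGF- library 3, adjusted p = 0.06 to 0.076). The other 6 of the 13 listed were below the expression filter. Among them mt-Co2 averaged 0.271 CPM in AGF+ and 0.671 CPM in AGF- cells, against 1236 and 2127 CPM for mt-Co1. The mitochondrial share of counts thus hardly includes these 6, and the cause was not tested. Mitochondrially encoded genes fell in 7 with the replicate block and in 0 to 2 without AGF+ libraries 1 or 3 or AGF- library 3. Cholesterol genes fell in 4 of 31 (median -0.28), near the 11% over all tested genes. The fallers included Nr1h3, the oxysterol receptor LXR alpha (-1.20 ± 0.29), and Insig1, which retains the sterol sensor (-0.65 ± 0.18; not called without AGF+ library 2 or AGF- library 3, adjusted p = 0.079 to 0.12). Cholesterol synthesis and sterol genes fell in 1 without both libraries numbered 2 and in 2 without AGF- libraries 1 or 3. Amino acid transporters rose in 3 of 17 and fell in 5 (median 0.03), with Slc7a6 (1.18 ± 0.13) among the risers and Slc7a8 (-2.17 ± 0.43) and Slc7a1 (-0.70 ± 0.15) among the fallers. Amino acid transport genes fell in 3 without both libraries numbered 2 and in 3 without AGF+ library 3. Lipid mediator genes fell in 7 of 25 and rose in 3 (median -0.31), the latter 12% against 10.1% over all tested genes. Slco2a1, a prostaglandin transporter, had 13.6, 16.3 and 13.8 CPM in AGF+ and 1.41, 2.15 and 2.71 CPM in AGF- cells (log2 fold change 2.78 ± 0.28, adjusted p = 1.5e-05), while Hpgd, which breaks prostaglandins down, had 1.51, 0.644 and 0.234 CPM in AGF+ and 14.3, 9.26 and 21.7 CPM in AGF- cells (log2 fold change -4.13 ± 0.56, adjusted p = 1.7e-04). The directions of transporter and enzyme were opposite, each without overlap. Lipid mediator genes rose in 1 without both libraries numbered 2 and in 1 without AGF+ library 1, and fell in 4 without both libraries numbered 2.

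Lysosomal genes fell in 13 of 25 and rose in 0 (median -0.61), with the same number lower without the libraries numbered 2. Npc2, which carries cholesterol out of lysosomes, had 131, 109 and 141 CPM in AGF+ and 305, 246 and 286 CPM in AGF- cells (log2 fold change -1.14 ± 0.14, adjusted p = 9.5e-05), and Psap, the precursor of saposins, fell (-0.96 ± 0.14). Actin cytoskeleton genes fell in 15 of 32 and rose in 0 (median -0.42). Anxa1, a membrane-binding annexin, had 5.69, 8.38 and 8.89 CPM in AGF+ and 31.7, 28.6 and 40.3 CPM in AGF- cells (log2 fold change -2.14 ± 0.24, adjusted p = 3.3e-05), and the myosins Myo1f (-1.50 ± 0.20) and Myo1e (-1.23 ± 0.21) fell. Actin cytoskeleton genes fell in 8 without both libraries numbered 2. Sarcomere genes did not follow Ttn as a group: 2 of 10 rose and 2 fell (median 0.15). Myh7, the slow muscle myosin, rose (1.98 ± 0.59; not called without AGF+ libraries 1 or 3 or AGF- libraries 2 or 3, adjusted p = 0.077 to 0.13), but 13.3% of its exon bases overlap antisense genes, and Nebl, a nebulin relative, fell (-4.58 ± 0.75). Notch pathway genes rose in 3 of 18 and fell in 5 (median -0.33). Dll4, a Notch ligand, had 54.9, 38.2 and 75.3 CPM in AGF+ and 12.5, 7.32 and 10.9 CPM in AGF- cells (log2 fold change 2.45 ± 0.49, adjusted p = 0.0028), so that all AGF+ libraries were above all AGF- libraries, while Rbpj, the nuclear effector of Notch receptors, fell (-0.70 ± 0.12). Notch pathway genes fell in 3 without AGF+ library 1.

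The same sort in AireKO mice addresses whether the differences depend on the genotype, which was tested as the interaction, the log2 fold change in KI/+ minus that in AireKO. It called 1 of 15884 genes, 0.0063%, and 261 (1.64%) had an unadjusted p under 0.05. The gene was Aire, in which the genotypes themselves differ, so this call checks the labels. In AireKO mice Aire averaged 26.5 ± 1.99 CPM in AGF+ and 13.3 ± 1.98 CPM in AGF- cells (SD, n = 3 each), a log2 fold change of 0.99 ± 0.16, so that the sort difference was larger in KI/+ by 2.0 ± 0.22 (edgeR interaction, adjusted p = 0.0045). Without the libraries numbered 2 the value was 2.02, and 0 genes were called (adjusted p for Aire = 0.67), with 326 genes at an unadjusted p under 0.05. Fn1, fibronectin, which was chosen after its values were seen, had 5.69, 4.99 and 9.59 CPM in AGF+ and 31.3, 18.5 and 31.2 CPM in AGF- cells of KI/+ mice (log2 fold change -2.02 ± 0.30, adjusted p = 3.1e-04) and an interaction of 3.51 ± 0.53 that did not pass (adjusted p = 0.092), but passed with the replicate number as a block (adjusted p = 0.029). Of Aire and 46 further genes chosen for the size of their change in CPM or in ratio, all 47 had the same sign in AireKO mice and 45 were called there, where 24.7% of all tested genes were called in either direction. The exceptions were Tmsb4x and Lhfpl2. Since the 47 genes were chosen for large changes, their share and the 24.7% describe unlike sets. Of all 1603 genes called higher in KI/+ mice, 1226 were also called higher in AireKO mice. Of the 1746 called lower, 1463 were also called lower there. The KI/+ and AireKO comparisons share no libraries, but they come from the same fit and share its estimate of the spread. Ttn, for example, differed by 3.21 ± 0.22 in KI/+ and by 3.35 ± 0.22 in AireKO mice, Ache by 6.02 ± 0.50 and 6.16 ± 0.50, and Ccr2 by -4.65 ± 0.43 and -6.21 ± 0.48. A missing call of the interaction does not show that genotypes are alike: in simulated counts with this layout, the interaction recovered 21 of 100 genes set to differ 2-fold and 81 of 100 set to differ 4-fold. Those genes were drawn from the better counted ones, so recovery among genes of low counts may be lower.

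**Figure D5:**
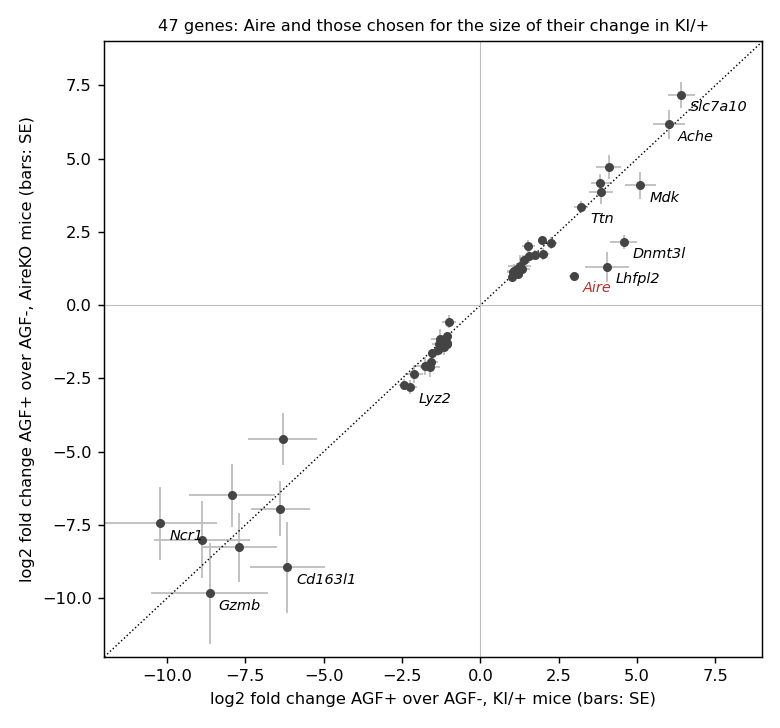
Log2 fold change of AGF+ over AGF- DCs in KI/+ mice (x axis) against that in AireKO mice (y axis), with SE bars, for 47 genes: Aire and those chosen for the size of their change in KI/+. All 47 have the same sign in both, and Aire lies below the diagonal, at 2.99 in KI/+ and 0.99 in AireKO mice.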

How the data were processed

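RNA of 3 AGF+ and 3 AGF- lymph node DC libraries of KI/+ mice was compared, fitted together with the 6 lymph node libraries of AireKO mice. The deposited table holds read counts per gene, which the authors made, per the submitters' processing notes, on the mouse build mm10 with STAR 2.7.3a and HTSeq 0.11.2, where fastp 0.20.0, Picard 2.21.1, SAMtools 1.9 and edgeR 3.38.1 are also listed. Annotation release, strand setting and treatment of reads that map to several genes were not stated there. Per the labels' protocols, Ovation SoLo libraries were made from 1.0 ng of total RNA. Of 55471 genes, 241 found no gene in GENCODE vM21 and kept their IDs, with 0.0139% of the counts.

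Genes were tested with edgeR 4.0.16 in R 4.3.3 (TMM, expression filter by group, quasi-likelihood F test, Benjamini-Hochberg adjusted p under 0.05), on all 12 lymph node libraries, so that 4 groups share 1 estimate of the spread. SE is the log2 fold change over the square root of F. TPM used union exon lengths. The floor for a group with 0 counts is 3 counts over its 3 libraries. Deviations from the group means correlated between same-numbered AGF+ and AGF- libraries with r = 0.56, 0.40 and 0.23 over 10749 genes. Between differently numbered libraries r was -0.51 to 0.11. The libraries numbered 2 also share the Xist and Y-linked levels described above. Whether same-numbered libraries come from the same mice was not tested. Because of these correlations the number was tried as a block, which the main fit does not use. Other alternatives were DESeq2 1.42.0, limma 3.58.1 voom, other scalings and filters, other sets of libraries, a stricter threshold, a test against 1.5-fold and each library left out.

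The genes and the 47 gene lists were chosen with earlier results of these data known. The naming rule takes Aire, the 15 largest gains and losses in CPM and the 8 largest in ratio among calls of at least 2-fold with an average of at least 3 log2 CPM and no overlap between groups (without predicted genes, pseudogenes, antigen receptor segments and sex-linked genes), and up to 4 members of each list with the smallest adjusted p. For any other gene the text says that its values were seen first. Some genes that the rule takes are not reported here, and counts over lists include them. In simulated counts of 15490 genes, the sort comparison recovered 64 of 100 genes changed 2-fold and 96 of 100 changed 4-fold, with 11 false calls, and the interaction had 9 false calls. The changed genes were drawn only from genes with higher average counts, and no other difference between groups was set. Tables were made with pandas 2.3.3 and numpy 2.4.6, intervals with scipy 1.17.1 and plots with matplotlib 3.10.9, all under Python 3.11.15.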

Additional observations from a re-analysis of the deposited data

Results flagged for a closer look

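Aire is the result that stood out for a difference between the genotypes under the same sort. Its log2 difference between AGF+ and AGF- cells was 2.0 larger in KI/+ than in AireKO mice (SE 0.22, edgeR interaction, adjusted p = 0.0045). The reporter of this gene defined the sort in both genotypes. The genotypes also differ in Aire itself, so this difference checks the labels and is not a finding about other genes. With 1 library of the KI/+ groups left out at a time, the difference was 1.88 to 2.09 and its adjusted p 0.0051 to 0.032. Without both libraries numbered 2 it was 2.02 and did not pass (adjusted p = 0.67). Groups of 3 libraries were too small to look for single libraries that stand apart within a group.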

How the results depend on the processing

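The 1603 higher and 1746 lower genes became 841 and 971 at an adjusted p under 0.01, 595 and 711 when tested against a 1.5-fold change (glmTreat), and 877 and 1065 in the 8 libraries without those numbered 2. With each library of KI/+ mice left out in turn, 1044 to 1421 were higher and 1227 to 1502 lower. Under the other 9 settings both counts stayed within 1.5 times. The interaction, KI/+ minus AireKO, called 1 gene with a positive value and 0 with a negative value. Without a filter on low counts these were 12 and 2, and with the DESeq2 Wald test and with the replicate block 2 genes were positive, Aire and Fn1. For Fn1, which fell in AGF+ cells, the positive value means a smaller fall in KI/+ than in AireKO mice. The 8 libraries called 0, and each leave-one-out fit called 1 and 0. With the replicate block, which gives same-numbered libraries of all 4 groups a shared term, 2062 genes were higher and 2276 lower. No named gene lost its call there, and Flt3, Zbtb46, Cd86, H2-Aa and Il7r gained one. Scaling by library size alone gave 1782 higher and 1548 lower genes. Of 228 named genes that were called, 178 kept their call in every setting at an adjusted p under 0.05, 40 lost it in at least 1 leave-one-out fit and 33 without the libraries numbered 2, and 0 changed sign. limma voom lost 6, among them Gzma, Cd163l1 and Cd3g, the 6 libraries alone lost H2-Ab1, H2-Eb1, Ndufb8 and Arid1a, and all 21 libraries lost Itgax, Pdia3 and Soat1. The causes were not tested. Of 37 list counts of at least 5, 13 moved by over 1.5 times without the libraries numbered 2. Depth limits genes near 1 CPM, which rest on 4.25 to 6.21 counts in a library.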
